A study of Mus musculus with 4 samples.

Results

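Open chromatin was examined around 10 circadian clock genes in cultured subcutaneous fat cells before and after beige differentiation. The genes were Arntl, Clock, Per1, Per2, Per3, Cry1, Cry2, Nr1d1, Nr1d2 and Dbp, 10 of the 22225 protein-coding genes annotated on the mm9 mouse genome. Every deposited ATAC-seq peak with its summit within 50 kb of an annotated transcription start site (TSS) of one of them was taken. This gave 424 of 239063 peaks, which merged where they overlapped into 138 of 100608 sites. ATAC-seq uses the Tn5 transposase to insert sequencing adapters into accessible DNA, so a peak marks a stretch of open chromatin. The cells were im-scWAT cells, stromal-vascular preadipocytes of subcutaneous white fat that had been immortalised with SV40 large T antigen and selected with puromycin. They came from mice with normal Jmjd1a (Jmjd1a +/+, WT) or from mice homozygous for the HY allele of that gene (Jmjd1a HY/HY, HY), a histidine-to-tyrosine change that removes the activity of JMJD1A, a demethylase of lysine 9 on histone H3. Nuclei were taken on day 0 (D0), before differentiation, or on day 8 (D8). Between those days both genotypes received an induction medium with indomethacin, dexamethasone, IBMX, rosiglitazone, insulin and T3, followed by insulin, T3 and rosiglitazone. Each of the 4 groups was 1 library, so a difference compares 2 libraries, and no test of day or genotype was made. The hour of harvest, and so the phase of the clock in each culture, is not given in the sources used here.

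The circadian clock is a loop of transcription and feedback present in most cells, fat cells included. CLOCK and BMAL1, the product of Arntl, form a dimer that binds E-box sequences and switches on the Per and Cry genes, whose proteins then hold that dimer back. The same dimer drives Nr1d1 and Nr1d2, which encode the REV-ERB nuclear receptors. These receptors repress Arntl through elements called ROREs, which they share with the ROR receptors. Dbp encodes a factor of the output arm that binds D-box elements.

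The number of peaks differed between the libraries and set the background for all counts of sites. The lists held 71523 (D0) and 41228 (D8) peaks in WT and 77994 and 48964 peaks in HY. All libraries were sequenced to one approximate stated depth, and the number of tags used for each list is not in the files. The genome-wide background of the lists was 0.659, 0.531, 0.708 and 0.494 tags per position in the same order, so that both D8 libraries had the lower background. Of 8 adipocyte markers, 4 had an open promoter in each D0 library and 8 in each D8 library, with Adipoq, Fabp4, Plin1 and Cidec open at D8 in both genotypes and at D0 in neither. Of 8 preadipocyte and fibroblast markers, 8 and 6 were open at D0 (WT and HY) and 2 at D8 in each genotype. None of 5 macrophage markers was open in any library, 0 to 3 of 5 endothelial markers were, and of 5 muscle markers Acta1 alone was open, in WT D8. Of 4 Y-linked genes, Ddx3y, Eif2s3y and Uty had an open promoter in both HY libraries and in neither WT library, and Kdm5d had none in any library. The HY allele and the origin of the culture therefore cannot be told apart.

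Values at a site are given as the summit pileup, the number of overlapping tags at the highest point of the peak, solved from the fold enrichment and p-value deposited for it. To compare libraries, pileup ratios were divided by the median ratio over the 24369 sites of the genome that were open in all 4 libraries. That median was 0.722 for D8 over D0 in WT, 0.659 in HY, 1.13 for HY over WT at D0 and 1.04 at D8. The ratios have exact 95% binomial intervals, which cover counting error alone and not the spread between cultures.

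All 10 clock genes had an open promoter in all 4 libraries, against 45% of protein-coding genes. A promoter was called open with a summit between 1000 bp upstream and 100 bp downstream of a TSS. As a group the clock promoters were also deep. Their median pileup was 61.5 and 53 tags in WT (D0 and D8) and 70.5 and 58 tags in HY, against 37, 28, 43 and 29 over all promoters open in all 4 libraries.

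**Figure D1:**
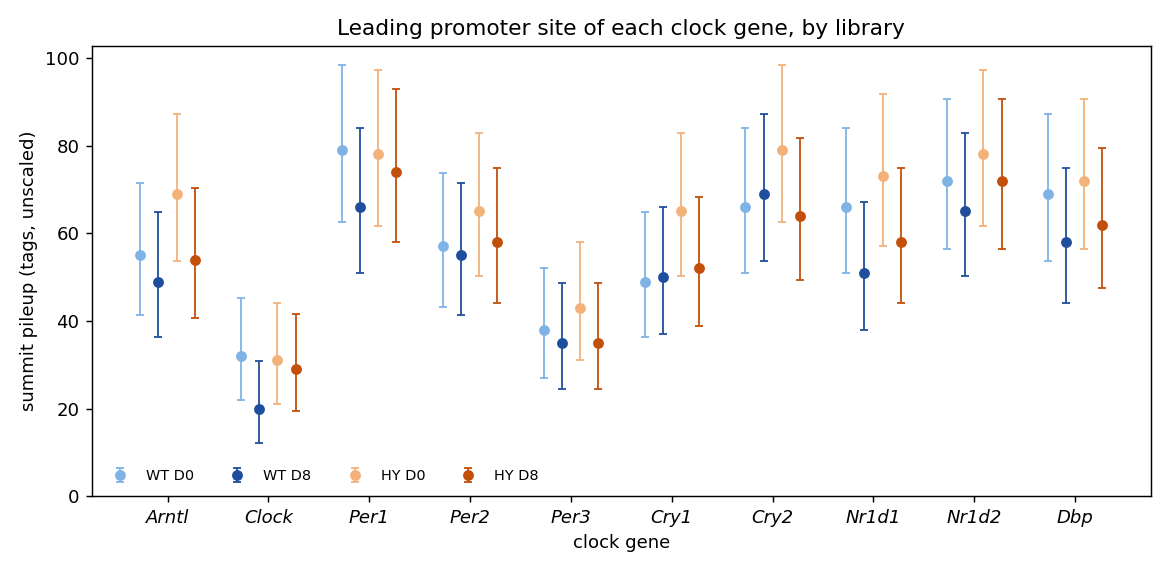
Summit pileup (tags, unscaled) at the leading promoter site of each clock gene in the 4 libraries, with 1 point per library and exact 95% Poisson intervals that cover counting error alone. Clock and Per3 had the shallowest promoters, at 20 to 32 and 35 to 43 tags, and Per1 reached 66 to 79.

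The activators of the loop differed in depth. Arntl (ENSMUSG00000055116.6, plus strand) had its promoter site at chr7:120350151-120351169, with pileups of 55 and 49 tags in WT (D0 and D8) and 69 and 54 tags in HY. It lay between percentiles 81.0 and 90.3 of the open promoters, depending on the library. Clock (ENSMUSG00000029238.7, minus strand) had the shallowest promoter of the 10, at chr5:76733603-76734394, with 32, 20, 31 and 29 tags in the same order. The Clock promoter stood between percentiles 24.6 and 48.6.

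The repressors of the loop had deep promoters, with Per3 the exception. Per1 at chr11:68908185-68908859 had 79, 66, 78 and 74 tags and stood at or above percentile 95.96 in every library. Per2 at chr1:93355662-93356380 had 57, 55, 65 and 58 tags, and Per3 at chr4:150418492-150419176 had 38, 35, 43 and 35, between percentiles 48.8 and 64.6. Cry1 at chr10:84647686-84648475 had 49, 50, 65 and 52 tags. Cry2 at chr2:92273771-92274773 had 66, 69, 79 and 64 and was at or above percentile 92.6 throughout. In WT, Cry1 and Cry2 were the 2 genes whose raw pileup was not lower at D8 than at D0.

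The REV-ERB genes and Dbp were among the deeper promoters. Nr1d1 at chr11:98636184-98637527 had 66, 51, 73 and 58 tags, and Nr1d2 at chr14:19070717-19072117, the widest site of all 138 with 1401 bp, had 72, 65, 78 and 72. Dbp at chr7:52960095-52961062 had 69, 58, 72 and 62 tags. All 3 stood at or above percentile 88.6 in every library. The counting intervals of the 4 libraries overlapped for each of these genes, as the plot of promoter pileups by library shows.

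Scaled to the sites shared by all libraries, the clock promoters were slightly higher at D8. The median ratio of D8 over D0 was 1.24 in WT, ranging from 0.865 to 1.45, with 9 of 10 above 1. In HY it was 1.27, ranging from 1.19 to 1.44, with 10 of 10 above 1. All promoters had medians of 1.08 in WT and 1.07 in HY, with 6148 of 10004 and 6119 of 10301 above 1. Single promoters carried little of this beyond counting error. In WT the interval lay above 1 for Cry2 alone (1.45, interval 1.02 to 2.06). In HY it did so for Per1 (1.44, 1.03 to 2.01) and, barely, Nr1d2 (1.40, 1.00 to 1.96). Without scaling, which moves all sites by 1 factor, the medians were 0.897 in WT and 0.838 in HY, beside 0.781 and 0.706 over all promoters. With the deposited fold enrichment in place of the pileup they were 0.925 and 0.986, beside 0.934 and 0.926, so that in WT the clock promoters were then not above the rest.

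Between genotypes the ratios of the clock promoters were near 1. The median ratio of HY over WT was 0.990 at D0, with 5 of 10 above 1, and 1.05 at D8, with 8 of 10 above 1, beside 1.01 and 0.997 over all promoters, of which 5907 of 11050 and 4927 of 10008 were above 1. The extremes were Clock at 0.857 (0.506 to 1.45) and Cry1 at 1.17 (0.798 to 1.74) at D0, and Cry2 at 0.893 (0.626 to 1.27) and Clock at 1.40 (0.763 to 2.60) at D8. Every one of the 20 intervals included 1, which with 1 library per group limits counting error and does not show that the genotypes were alike.

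The sequence under the promoter peaks was searched for the elements through which the loop is known to work. The letters searched on both strands were CACGTG for the E-box, CACGTT for an E-box variant, TAGGTCA for the RORE, TTATGTAA and TTACGTAA for the D-box, TGACGTCA for the cAMP response element and TGTTCT for the half-site of the glucocorticoid response element. An E-box or its variant occurred in 6 of the 10 leading promoter sites, with 2 E-boxes in Per1, 3 in Nr1d2, 1 in Nr1d1 beside 2 variants, 1 in Cry1 beside 1 variant, and 1 variant each in Per2 and Cry2. The RORE letters occurred in the sites of Arntl and Dbp. D-box letters occurred in Per2 (1 of each form), Per3 (2 of the first form) and Nr1d2 (1 of the first form). None of the loop's elements was found in the Clock site. These counts cover whole sites of 675 to 1401 bp. No share over all promoters was computed for whole sites, so they cannot be read as a trait of clock promoters. The following 30 bases (29 for the RORE) around the match nearest to the summit are printed on the strand of the gene, 5′ to 3′, with the match in capitals, because they are the parts of the open promoters that the clock proteins of this list are known to recognise.
Per1 E-box, chr11:68908557-68908586, plus strand: cgcccccgccctCACGTGgctctatcacta
Cry1 E-box, chr10:84647842-84647871, minus strand: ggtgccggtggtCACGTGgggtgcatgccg
Nr1d1 E-box, chr11:98636997-98637026, minus strand: cagttctccaatCACGTGaagctctcacgt
Nr1d2 E-box, chr14:19071175-19071204, minus strand: tgccgcactggcCACGTGcacggtgtgttt
Per2 E-box variant, chr1:93355879-93355908, minus strand: agcgcgcgcggtCACGTTttccactatgtg
Cry2 E-box variant, chr2:92274375-92274404, minus strand: acacatggtgggAACGTGagggggcggagc
Per2 D-box, chr1:93356008-93356037, minus strand: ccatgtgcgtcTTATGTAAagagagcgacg
Per3 D-box, chr4:150418914-150418943, minus strand: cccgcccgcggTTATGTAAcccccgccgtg
Arntl RORE, chr7:120351044-120351072, plus strand: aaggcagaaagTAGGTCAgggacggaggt
Dbp RORE, chr7:52960258-52960286, plus strand: ttggccaaataTAGGTCAgtgtcccgcct

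The Per1 E-box lay 39 bp from the strongest summit, the Per2 D-box 3 bp and the Dbp RORE 45 bp, while the Nr1d2 E-box lay 536 bp away. In windows of 201 bp centred on the summit, the E-box letters were in 1 of 10 clock promoters and in 7.53% of all 11966 promoters with a site, and the variant was in 2 of 10 against 3.59%. The first D-box form was in 2 of 10 against 0.326%, the second in none against 0.125%, and the RORE in 1 of 10 against 0.994%. The cAMP response element (2.86% of all promoters) and the glucocorticoid half-site (5.91%) were in none of the 10 windows. Over whole sites, the half-site occurred in the leading sites of Nr1d1 (2) and Arntl (1). It also occurred in sites at internal TSSs of Per1 and Dbp (1 each). A match is a description of the sequence and does not show that a factor was bound.

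Dbp and Per1 had further open sites at TSSs inside the gene. The site at chr7:52963023-52963248, 64 bp upstream of an internal TSS of Dbp in an exon of a non-coding transcript, had 32 and 30 tags in WT (D0 and D8) and 38 and 26 tags in HY. It held 2 E-boxes and 1 variant, and the E-box nearest to the summit was 3 bp from it, which is why it is printed here with the match in capitals.
Dbp internal E-box, chr7:52963183-52963212, plus strand: agctgtaggccaCACGTGatgcggccctga

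In Per1, a site inside the gene 115 bp upstream of an internal TSS, at chr11:68913230-68913694, was open at D0 in both genotypes with 40 tags in WT and 48 in HY and was called at D8 in neither. At the local background of the nearest called peak, 1200 bp (WT) and 1221 bp (HY) away, a peak at D8 needed 21 tags in WT and 22 in HY to be called. The leading Per1 promoter was open on both days (79 and 66 tags in WT, 78 and 74 in HY). So was another site 111 bp upstream of an internal TSS, at chr11:68912232-68912490 (40 and 41 tags in WT, 53 and 31 in HY).

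The 138 sites, promoters included, were spread unevenly over the genes, from 3 around Nr1d2 and 5 around Clock to 24 around Nr1d1 and 31 around Per1. Cry1 had 7, Arntl, Per3 and Dbp 13 each, Cry2 14 and Per2 15. Their median width was 368 bp, 65 lay in introns and 57 between genes. Many of them may belong to neighbours, since a clock gene had the nearest protein-coding TSS for 66 of the 138. Per1 lies in a gene-dense region, and 6 of its 31 sites were nearest to Per1 itself. The local background at the Per1 sites was also high, with a median of 10.2 tags in WT D0 and 10.8 in HY D0 and of 5.17 and 4.64 at D8, so a summit there had to be taller to be called at D0 than elsewhere.

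**Figure D2:**
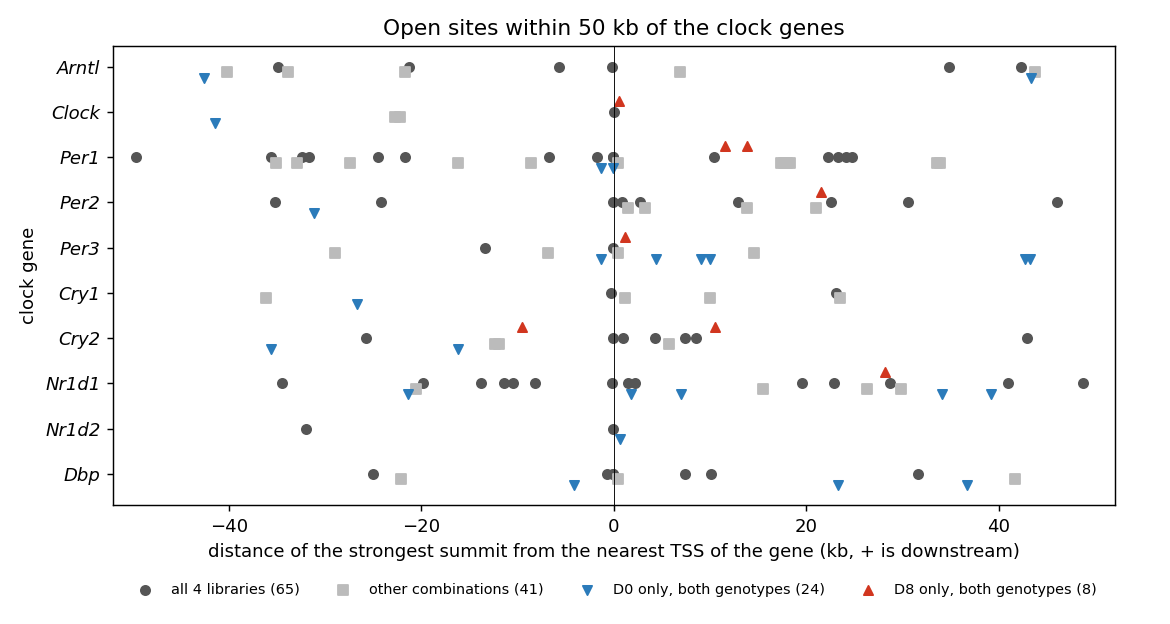
Position of the 138 sites by distance (kb) of the strongest summit from the nearest TSS of each clock gene, with symbols for sites open in all 4 libraries (65), at D0 alone in both genotypes (24), at D8 alone in both genotypes (8) and in other combinations (41). The Per3 row has 6 of the 24 sites open at D0 alone, and the D8 sites fall on Clock, Per1, Per2, Per3, Cry2 and Nr1d1.

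Sites near the clock genes were more often shared than sites in general. Of the 138, 65 (47.1%) were open in all 4 libraries, against 24.2% of all sites and 28.0% of sites within 50 kb of any protein-coding TSS. In WT, 37 of 122 sites open on either day were called at D0 alone (30.3%, exact binomial interval 22.3% to 39.3%), against 52.7% of all sites. In HY the count was 39 of 130 (30%, 22.3% to 38.7%), against 49.3%. Sites called at D8 alone numbered 13 of 122 in WT (10.7%, 5.80% to 17.5%), against 12.1%, and 13 of 130 in HY (10%, 5.43% to 16.5%), against 13.7%, so they were near the background. Counted over peaks with a 50% overlap, they were below it. The shares were then 17.9% against 27.8% of all peaks in WT and 19.4% against 28.9% in HY. The excess of D0 over D8 sites depended on the length of the lists. With each list shortened to its 41228 strongest peaks, 23 of 102 clock sites were called at D8 alone in WT and 17 at D0 alone, and in HY 30 and 19 of 106, which turned the order around. Over all sites the shortened lists gave 25.5% at D8 alone in both genotypes and 31.7% and 30.2% at D0 alone.

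The calls were also compared between genotypes. At D0, 17 of 126 clock sites were called in HY alone (13.5%, interval 8.06% to 20.7%), against 21.7% of all sites, and 9 in WT alone (7.14%, 3.32% to 13.1%), against 12.1%. At D8, 14 of 99 were called in HY alone (14.1%, 7.95% to 22.6%), against 26.3%, and 8 in WT alone (8.08%, 3.55% to 15.3%), against 9.53%. The HY list was the longer of the pair on both days, and with lists of equal length the order at D0 turned around, with 9 of 88 in HY alone (10.2%, against 15.8% of all sites) and 12 in WT alone (13.6%, against 14.3%). The intervals of both counts in HY alone lay below the share of all sites, and those of both counts in WT alone included it. Against sites within 50 kb of any protein-coding TSS (19.95% in HY alone at D0 and 23.8% at D8), the interval at D0 included the share and that at D8 lay below it.

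**Figure D3:**
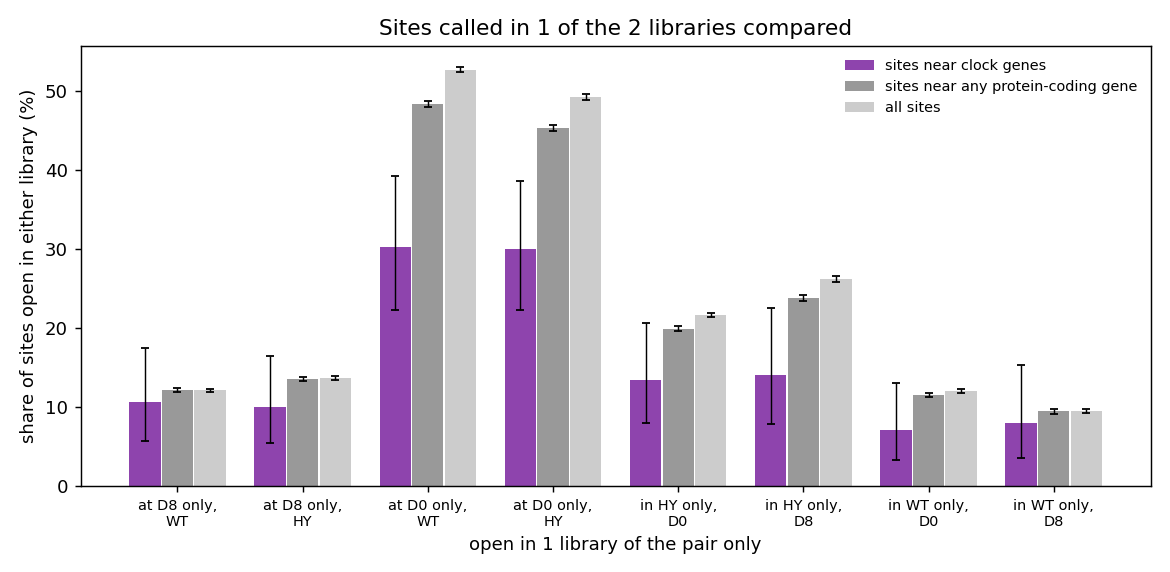
Share (%) of the sites open in either library of a pair that were called in 1 of them alone, for sites near the clock genes, sites within 50 kb of any protein-coding TSS and all sites, with exact 95% binomial intervals for counting error. The clock sites called at D0 alone were 30.3% in WT and 30% in HY, against 52.7% and 49.3% of all sites.

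At D8 in both genotypes and at D0 in neither, 8 of the 138 sites were open (5.80%), against 5.99% of all sites. They lay around 6 of the genes, and 3 of them were tall. Ranked by −log10 q in the weaker of the 2 libraries, the first (25.5 in WT, 18.7 in HY) was a site in an intron of Per2 at +21.5 kb, with 34 tags in WT D8 and 29 in HY D8 where 5 would have been enough for a call at D0 in either genotype. An intron of Cry2 at +10.5 kb had 35 and 36 tags, against 13 (WT) and 10 (HY) needed at D0. An intron of Per3 at +1.1 kb had 28 and 30, against 9 and 10. The nearest peak called at D0 lay 1014 bp (WT) and 1027 bp (HY) from the Per2 summit, 1968 and 1975 bp from that of Cry2, and 1227 and 654 bp from that of Per3.

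The other 5 sites were lower. An intron of Clock had 14 tags in each D8 library at +0.5 kb, against 9 needed at D0. Around Per1, sites at +11.6 and +13.8 kb had 13 and 13, and 15 and 14 tags, and both were nearer to Hes7, a repressor of the segmentation clock, than to Per1. A site at +28.1 kb from Nr1d1 with 11 and 14 tags lay 150 bp from a TSS of Thra, a thyroid hormone receptor gene that overlaps Nr1d1 at its end. A site at -9.6 kb from Cry2 had 7 and 8 tags, against 5 needed in each D0 library. All 8 were at or above the pileup needed in both D0 libraries at the background of the nearest called peak, which lay 498 to 6676 bp away.

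The middle of the 4 strongest of these sites is printed as the sequence newly called open after differentiation within clock genes, on the gene's strand, 5′ to 3′. The windows are 141 bases centred on the summit, or 99 for Per3, where exon bases were left off. Capitals mark the single match to the letters listed above, an E-box variant in Clock.
Per2 at +21.5 kb, chr1:93334297-93334437, minus strand: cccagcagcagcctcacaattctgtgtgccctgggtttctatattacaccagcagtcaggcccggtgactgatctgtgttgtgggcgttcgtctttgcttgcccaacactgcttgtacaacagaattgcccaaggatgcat
Cry2 at +10.5 kb, chr2:92262004-92262144, minus strand: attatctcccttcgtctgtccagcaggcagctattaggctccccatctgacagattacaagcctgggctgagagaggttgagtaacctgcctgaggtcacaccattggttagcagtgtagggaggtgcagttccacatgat
Per3 at +1.1 kb, chr4:150417569-150417667, minus strand: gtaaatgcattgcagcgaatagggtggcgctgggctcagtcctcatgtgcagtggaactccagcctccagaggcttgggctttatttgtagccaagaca
Clock at +0.5 kb, chr5:76733009-76733149, minus strand: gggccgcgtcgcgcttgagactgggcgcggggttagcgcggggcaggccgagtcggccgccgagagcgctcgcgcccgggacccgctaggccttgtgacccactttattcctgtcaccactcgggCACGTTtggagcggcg

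The reverse pattern, open at D0 in both genotypes and at D8 in neither, was seen at 24 of the 138 sites (17.4%), against 24.6% of all sites. These 24 sites fell around all 10 genes, and Per3 had 6 of them. At the background of the nearest called peak, 21 of the 24 were at or above the pileup needed in both D8 libraries. Over its whole window Per3 went from 9 open sites in WT D0 to 3 in WT D8 and from 11 to 4 in HY. The Per3 sites not called at D8 were low, for instance 11 tags in WT and 13 in HY at -1.4 kb and 11 and 14 at +4.3 kb from internal starts. Nr1d1 went from 22 to 18 sites in WT and from 23 to 16 in HY, and Per2 from 12 to 11 in WT and from 12 to 13 in HY.

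By −log10 q in the weaker library, the first of the sites open at D0 alone (25.5 in WT, 23.0 in HY) was one at -31.2 kb from Per2, with 37 tags in WT D0 and 36 in HY D0, where 7 would have been enough at D8 at the background of the nearest called peak, 4150 bp (WT) and 4033 bp (HY) away. It lay between genes and was nearer to Traf3ip1. An intronic site of Thra at +7.0 kb from Nr1d1 had 25 and 35 tags. The others ranked highest were at -41.4 kb from Clock in an intron of Nmu (15 and 15 tags), at -26.7 kb from Cry1 (13 and 19), at +23.2 kb and +36.7 kb from Dbp in introns of Sult2b1 (25 and 18, and 13 and 15) and at +39.2 kb from Nr1d1 (17 and 18). The Per2 window of 141 bases, printed because the site ranked first, held none of the letters searched.
Per2 at -31.2 kb, chr1:93387007-93387147, minus strand: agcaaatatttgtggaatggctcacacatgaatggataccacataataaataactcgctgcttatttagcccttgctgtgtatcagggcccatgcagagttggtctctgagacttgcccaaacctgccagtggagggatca

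Among the 65 sites open in all 4 libraries, none was at least 2-fold higher at D8 in both genotypes, against 3.43% of all such sites, and 2 were at least 2-fold lower (3.08%), against 6.21%. One of the latter was at +42.9 kb from Cry2 in an intron of Mapk8ip1, which encodes a scaffold protein of JNK signalling. It had 47 and 13 tags in WT (D0 and D8) and 63 and 14 tags in HY, for scaled ratios of 0.383 (0.190 to 0.720) and 0.337 (0.175 to 0.609). The other lay between genes at -34.9 kb from Arntl, with 28, 9, 33 and 8 tags and ratios of 0.445 (0.185 to 0.970) and 0.368 (0.147 to 0.813). The 2 sites were picked by this 2-fold rule, so their lower pileups at D8 follow from the selection. The Cry2 window below held none of the letters searched.
Cry2 at +42.9 kb, chr2:92229550-92229690, minus strand: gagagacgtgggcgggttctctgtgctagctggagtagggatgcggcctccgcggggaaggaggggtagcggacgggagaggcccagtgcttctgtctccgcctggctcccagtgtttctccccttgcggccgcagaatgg

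**Figure D4:**
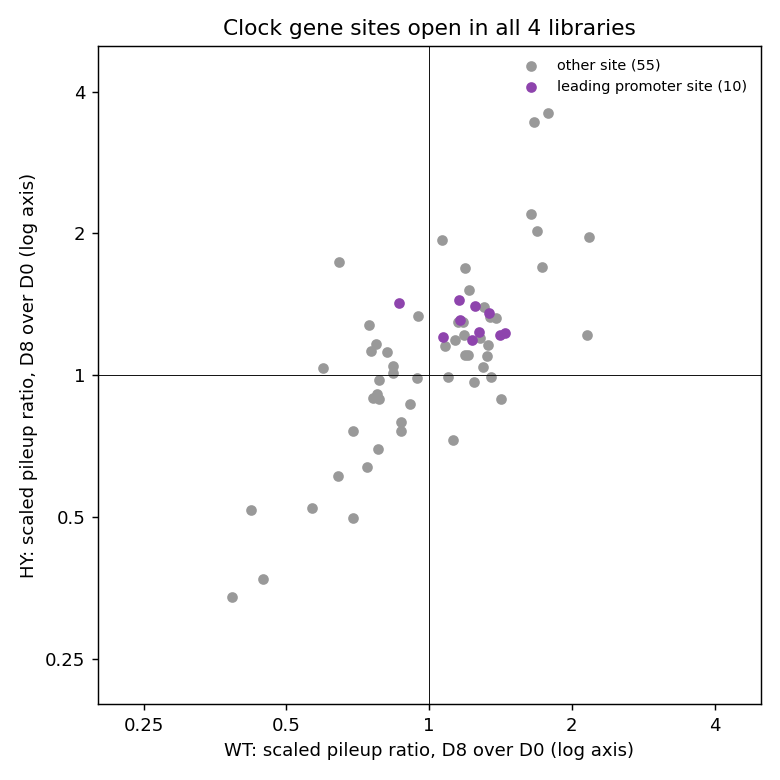
Scaled pileup ratio of D8 over D0 in WT (horizontal, log axis) and HY (vertical, log axis) for the 65 clock gene sites open in all 4 libraries, 1 point per site. The 10 leading promoters lie between 0.865 and 1.45 in WT and between 1.19 and 1.44 in HY, and 2 sites fall below 0.5 in both.

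Further sites were chosen after their values had been seen. An intronic Cry2 site at +4.2 kb had 21 and 33 tags in WT (D0 and D8) and 24 and 31 tags in HY, with ratios of 2.18 (1.22 to 3.96) and 1.96 (1.11 to 3.49). An intronic Cry1 site at +23.1 kb had 14, 18, 8 and 19 tags, and its ratio was 1.78 (0.837 to 3.87) for WT and 3.61 (1.51 to 9.52) for HY. A site in an intron of Thra at +19.5 kb from Nr1d1 had 15, 18, 11 and 25 tags and ratios of 1.66 (0.791 to 3.54) and 3.45 (1.64 to 7.77). A site in an intron of Sec1 at -25.0 kb from Dbp went from 46 tags to 14 between D0 and D8 of WT cells and from 44 to 15 in HY cells. Its ratios were 0.421 (0.214 to 0.780) and 0.518 (0.268 to 0.948). An intronic Arntl site at +34.8 kb had 18, 28, 25 and 20 tags. Its ratio was 2.15 (1.15 to 4.13) for WT and 1.21 (0.640 to 2.28) for HY. The intervals of the Cry2 and Dbp sites were on the same side of 1 in both genotypes. The sites were picked on these values, so this lends no support to a change. The intervals of the Cry1 and Nr1d1 sites included 1 in WT, and that of the Arntl site included 1 in HY.

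Over the 36 clock sites open in all libraries that lay away from any promoter, the median scaled ratio of D8 over D0 was 0.872 in WT and 1.12 in HY, beside 0.881 and 0.889 over the 13723 distal sites of the genome. For HY over WT it was 0.936 at D0 and 1.03 at D8, beside 0.985 and 1.00. In windows of 201 bp, the E-box letters were in 8 of 102 distal clock sites (7.84%), against 3.21% of 85149 distal sites, and the glucocorticoid half-site in 10.8% against 16.5%. The E-box variant (2.94% against 2.81%) and the RORE (2.94% against 2.27%) occurred about as often as elsewhere. The cAMP response element was in 1.96% against 0.369%. The 2 D-box forms were in none of the 102 windows, where 0.871% and 0.121% of all distal windows held them.

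Sites that followed genotype on both days were few. They numbered 4 in HY alone (2.90%, interval 0.795% to 7.26%), against 0.899% of all sites, and 1 in WT alone, against 0.322%. The HY sites were at +17.7 kb from Per1 (23 tags at D0 and 18 at D8), -12.0 kb from Cry2 (10 and 6), -36.1 kb from Cry1 (7 and 5) and -29.0 kb from Per3 in an intron of Camta1 (15 and 5). The median pileup of all peaks was 15 tags in HY D0 and 13 in HY D8, so the Per1 site was above it and the Cry2 and Cry1 sites were below it on both days. The WT site lay at +33.9 kb from Per1, 60 bp from a TSS of Aloxe3, with 14 and 8 tags. In HY, 6 were needed there at D0 and 15 at D8, at the background of peaks 323 and 9159 bp away.

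The rest of the clock pathway was taken as a list of 17 genes. Of these, 16 had an open promoter in all 4 libraries, against 45% of protein-coding genes. The exception was Timeless, with 9, 6 and 8 tags in WT D0, WT D8 and HY D0 and no call in HY D8. The median scaled promoter ratio of D8 over D0 was 1.15 in WT and 1.23 in HY, beside 1.08 and 1.07 over all promoters. Of the 218 sites around these 17 genes, 15 were open at D8 alone in both genotypes (6.88%, against 5.99% of all sites) and 36 at D0 alone (16.5%, against 24.6%). In single comparisons, 22 of 168 sites were at D8 alone in WT (13.1%, against 12.1% of all sites) and 25 of 200 in HY (12.5%, against 13.7%), near the background. At D0 alone were 59 (35.1%, against 52.7%) and 82 (41%, against 49.3%).

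Several genes of the list are close relatives or partners of the members. Hlf, which encodes a D-box binding factor of the family of DBP, had 8 and 26 tags in WT (D0 and D8) and 7 and 27 tags in HY, with scaled ratios of 4.50 and 5.86. Both D8 values were above both D0 values, but the D0 values were near the lowest pileup of the 2 D0 lists, 5 tags. Npas2, which encodes a protein that can take the place of CLOCK in the dimer, had 14, 23, 8 and 29 tags (2.27 and 5.50). Its HY D0 value was likewise low. Of the other relatives, Arntl2 had ratios of 1.22 and 1.08 and Rorb of 1.07 and 1.01. Rora, which encodes a ROR receptor, went the other way with 32, 14, 30 and 13 tags (0.606 and 0.658). Nfil3, whose product represses through D-boxes, had 29, 32, 26 and 32 (1.53 and 1.87). Tef, the third gene of the DBP family, had 83, 69, 96 and 78 tags with ratios of 1.15 and 1.23, close to those of Dbp (1.16 and 1.31). The intervals of these ratios were not computed for the pathway list.

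**Figure D5:**
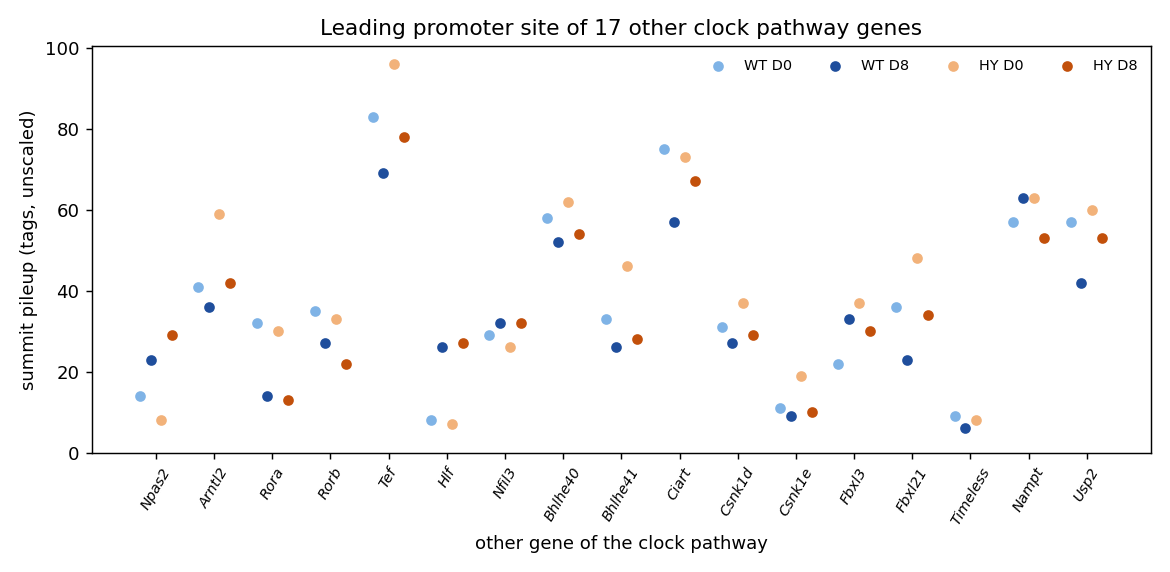
Summit pileup (tags, unscaled) at the leading promoter site of the 17 other clock pathway genes, with 1 point per library. Hlf lay at 7 and 8 tags at D0 and at 26 and 27 at D8, Rora lay at 30 and 32 at D0 and at 13 and 14 at D8, and Timeless has 3 points because no peak was called in HY D8.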

How the data were processed

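ATAC-seq peak lists of 4 libraries, 1 per genotype and day, were used as deposited. The authors trimmed, aligned (Bowtie2, mm9), removed duplicates (Picard) and called peaks in each library. MACS3 is named for the study's ChIP-seq, with which the procedure is said to be shared. Versions, the calling threshold and any shift of read ends for the Tn5 offset are not given in the sources used here. An unshifted end moves summits by a few bases and hardly alters overlaps. The deposited fold enrichment (a ratio of pileup to local background) and the deposited -log10 p and -log10 q of each summit are the authors' values, not normalised between libraries. The deposited score is a rescaled -log10 q and was not used.

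Pileup and background were solved from the fold and -log10 p, for 100% of peaks to within 0.002, with a procedure tested on simulated data. Overlapping peaks (1 bp) of the 4 lists were merged into sites, and a site was open in a library with any peak in it. The pileup at a site without a peak is unknown. The pileup needed for a call was taken from the lowest −log10 p of the list at the background of the nearest called peak. That peak was often far from the site, so the needed pileup is approximate. A called peak within 500 bp in both libraries was found for 0 of the 8 sites at D8 alone. For the 24 at D0 alone it was found for 2. The leading promoter site had the highest summed pileup among those in the promoter window. Annotation and sequence were GENCODE on NCBIM37 (mm9), coordinates 1-based. Ciart was matched as Gm129. Python 3.11.15 with pandas 2.3.3 and scipy 1.17.1 was used.

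The genes and lists were chosen with earlier results of these data known. One gene of the pathway list is not reported here and was left out of its counts. Sites named were the promoters, the 10 sites per direction called on 1 day alone in both genotypes with the strongest −log10 q in the weaker library, sites that differed 2-fold between days in both genotypes, and up to 5 sites per direction called in 1 genotype alone. Alternatives were a 50% overlap, a −log10 q of at least 5, lists of equal length, sites whose nearest TSS belonged to a clock gene, other scalings, the deposited fold, and a promoter of 2000 bp upstream to 1000 bp downstream.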

Additional observations from a re-analysis of the deposited data

Results flagged for a closer look

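At 2 sites the calls of the genotypes moved in opposite directions between days (1.45% of 138, interval 0.176% to 5.14%), against 0.722% of all sites, which that interval includes. At -20.5 kb from Nr1d1, in a coding exon of Msl1, a peak was called in WT at D8 alone (15 tags) and in HY at D0 alone (21 tags). At -21.7 kb from Arntl, between genes, one was called in WT at D0 alone (11 tags) and in HY at D8 alone (8 tags). At the background of the nearest called peak, 12 (WT D0) and 10 (HY D8) tags were needed at the Nr1d1 site, and 5 (WT D8) and 9 (HY D0) at the Arntl site. The Clock promoter had a scaled D8 over D0 ratio of 0.865 in WT (0.469 to 1.56) and of 1.42 in HY (0.826 to 2.44). The difference between the genotypes was not tested at any of the 3, since each group was 1 library.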

How the results depend on the processing

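No analysis paired by genotype was made, since 2 pairs of libraries would leave 1 residual degree of freedom. With lists of equal length, clock sites at D8 alone came to 23 of 102 (WT) and 30 of 106 (HY), against 25.5% of all sites in each, and sites at D0 alone to 17 and 19, against 31.7% and 30.2%. At D0, sites in HY alone came to 9 of 88 and in WT alone to 12, against 15.8% and 14.3%. With sites nearest to a clock gene TSS, the counts at D8 alone were 7 of 57 in WT and 10 of 63 in HY (12.3% and 15.9%, all sites 12.1% and 13.7%). At D0 alone they were 17 of 57 and 16 of 63 (29.8% and 25.4%, all sites 52.7% and 49.3%). In HY and WT alone at D0 they were 7 and 4 of 57 (12.3% and 7.02%, all sites 21.7% and 12.1%). In HY and WT alone at D8 they were 9 and 2 of 49 (18.4% and 4.08%, all sites 26.3% and 9.53%). With 50% overlap, counted over peaks, D8 alone came to 17 of 95 in WT and 19 of 98 in HY (17.9% and 19.4%, all peaks 27.8% and 28.9%). D0 alone came to 59 of 113 and 59 of 118 (52.2% and 50%, all peaks 73.9% and 72.6%). HY and WT alone at D0 came to 28 of 118 and 15 of 113 (23.7% and 13.3%, all peaks 34.6% and 20.4%). HY and WT alone at D8 came to 23 of 98 and 11 of 95 (23.5% and 11.6%, all peaks 39.6% and 18.4%). The median promoter ratio of D8 over D0 was below 1 without scaling (0.897 in WT, 0.838 in HY, all promoters 0.781 and 0.706) and with the deposited fold (0.925 and 0.986, all promoters 0.934 and 0.926). Leaving out the scaling moves all sites by 1 factor. That of HY over WT at D0 was above 1 without scaling (1.12, all promoters 1.15) and with background scaling (1.04, all promoters 1.07). With −log10 q of at least 5, the 8 counts of sites stayed within 1.5 times, and the 10 promoters were open in all libraries under each alternative run for them. The cause of these shifts was not tested. At pileups of this size, the intervals of most single-site ratios at the 65 sites open in all libraries included 1.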
